A study of Rattus norvegicus with 12 samples.

Results

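Mitosis genes encode the kinases, spindle, kinetochore and cytokinesis proteins that carry a cell through G2 and division. Here 45 of them were followed in NRK-49F cells, a fibroblast line from normal rat kidney. They were chosen by symbol, with earlier results of these data known. By symbol, 43 were found among the 14275 genes of the deposited table of normalized counts; Nek2 and Cenpa were not analysed here. All 43 passed the filter on low counts and so stood among the 14601 genes tested, with between 344 counts (Pttg1) and 20803 counts (Top2a) in a library. The members were divided by role into entry cyclins with Cdk1 and Cdc25 (6 genes), mitotic kinases with survivin (5), spindle checkpoint and anaphase (8), centromere and kinetochore (5), spindle motors with Tpx2 (5), central spindle and cytokinesis (7), chromosome structure (6) and the transcription factor Foxm1.

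Polyadenylated RNA was sequenced from 12 libraries in 4 groups of 3. These were cells transfected with Flag-tagged human HDAC1 and given TGFB1, cells with the HDAC1 plasmid in vehicle, cells with the empty vector pcDNA3.1 given TGFB1, and cells with the empty vector in vehicle. TGFB1 was given at 2 ng/ml for 24 hours. All 4 groups, controls included, were transfected with a plasmid and kept in medium with 0.5% serum, so no untransfected or full-serum cells stand beside them. The share of cells that took up a plasmid is not given in the sources used here. HDAC1 deacetylates histones and other nuclear proteins, and TGFB1 is a cytokine that drives fibroblasts toward matrix-producing myofibroblasts. The labels do not say whether the 3 libraries of a group came from separate cultures, so every p-value measures the spread between libraries, which may be technical.

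Entry into mitosis is driven by Cdk1 bound to A and B type cyclins, after Cdc25 phosphatases remove inhibitory phosphates from the kinase. Polo and Aurora kinases then build the spindle, the checkpoint holds back the anaphase-promoting complex until every kinetochore is attached, and loss of securin and cyclin B lets the chromosomes part and the cell divide. Transcripts of these genes accumulate together in G2 and mitosis under FOXM1, MYBL2 and the MuvB complex, and in resting cells the DREAM complex keeps many of them low.

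Library totals ran from 18397093 to 36652084 counts. Levels are CPM, counts scaled to a common library size after TMM, and depend on transcript length, so they are compared between libraries and not between genes. As a check of the labels, rat Hdac1 averaged 464 ± 43.5 CPM with HDAC1 and TGFB1, 421 ± 43.3 CPM with HDAC1 in vehicle, 267 ± 21.1 CPM with the empty vector and TGFB1 and 210 ± 4.13 CPM with the empty vector in vehicle (SD, n = 3). Its near copy Hdac1l was at 802 to 1367 CPM in the 6 HDAC1 libraries and at 0.530 to 15.1 CPM in the 6 empty vector libraries. How reads of the human plasmid were divided between these genes is uncertain. Of 12 fibroblast markers 10 were tested, with a summed level of 12508 to 25819 CPM, and Dcn stayed under 1 CPM in every library. The summed level of 5 tested endothelial markers was at most 6.13 CPM and that of 2 tested leukocyte markers at most 10.6 CPM. The summed level of 4 tested kidney epithelial markers was 1145 to 1761 CPM, nearly all of it Krt8. The summed level of 20 heart transcripts was 147 to 165 CPM with HDAC1 and TGFB1, 238 to 457 CPM with HDAC1 in vehicle and 430 to 548 CPM with the empty vector and TGFB1. With the empty vector in vehicle it was 71.4 CPM in replicate 1, which stood apart, and 384 and 409 CPM in the others. The summed level of the mitosis genes in replicate 1 (3593 CPM) lay between those of the others of its group (3564 and 3810 CPM). The summed level of 18 tested brain transcripts was 78.3 to 82.6 CPM with HDAC1 and TGFB1 and 91.3 to 194 CPM in the other 9 libraries. The part of heart and brain transcripts in the results was not tested.

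The question asked first was how HDAC1 without added cytokine moved the mitosis genes. All 43 rose. The edgeR quasi-likelihood test called each of them higher with HDAC1 in vehicle than with the empty vector in vehicle at a Benjamini-Hochberg adjusted p under 0.05, whereas 6.64% of all genes tested were called higher and 7.32% lower. Their log2 fold changes ran from 0.29 to 0.76 with a median of 0.53, beside a median of -0.0082 over all genes tested. For all 43, the 3 HDAC1 libraries lay above the 3 empty vector libraries, which held for 15.2% of all genes tested. In bulk RNA, a larger share of dividing cells and more of these transcripts per dividing cell cannot be told apart. Without replicate 1 of HDAC1 in vehicle, Cdc25c (0.27) and Kif18b (0.27) were no longer called, and Kif18b (0.25) was also lost without replicate 2 of the empty vector in vehicle.

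TGFB1 with the empty vector raised all 43 as well, against a background of 25.9% of all genes tested called higher and 25% called lower. The log2 fold changes ran from 0.21 to 1.02 with a median of 0.60, beside 0.012 over all genes tested. The 3 TGFB1 libraries lay above the 3 vehicle libraries for 42 members, which held for 28.6% of all genes tested, and the groups overlapped for Anln. Both single comparisons use the same empty vector vehicle libraries, so their values stand side by side and are not independent of each other.

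With both together the 43 mitosis genes were again all called higher than with neither, where 28.7% of all genes tested were called higher and 28.2% lower. The median log2 fold change was 0.81, from 0.32 to 1.29, beside -0.032 over all genes tested. No member overlapped between these groups, and 32.2% of all genes tested had the 3 libraries of HDAC1 with TGFB1 above the 3 with neither.

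On top of the other factor, each change was smaller. HDAC1 in the presence of TGFB1 raised 11 of 43 members and lowered 0 by edgeR (0 also at an unadjusted p under 0.05 and 0 by DESeq2), with 2.17% of all genes tested called higher and 4.36% lower, and the median log2 fold change was 0.18 (from -0.00047 to 0.38). The 11 were Ccna2, Bub1, Ttk, Cenpe, Cenpf, Kif11, Tpx2, Ncapg, Smc2, Smc4 and Mki67. The HDAC1 libraries lay above the empty vector libraries for 34 members (13.3% of all genes tested) and overlapped for 9. The count was 6 with library totals, 6 with a replicate block, 7 with upper quartile scaling, 7 with the compared groups alone and 20 with DESeq2. These calls also rest on single libraries: 0 remained without replicate 1 or without replicate 3 of HDAC1 with TGFB1, 1 without replicate 1 or without replicate 3 of the empty vector with TGFB1, and 9 to 15 were made when any other library was left out. TGFB1 in the presence of HDAC1 raised 34 members and lowered 1, with 24.9% of all genes tested called higher and 24.2% lower, and the median log2 fold change was 0.27 (from -0.31 to 0.79). Scaled by library totals alone, this comparison called 2668 of all genes tested higher and 4499 lower, against 3638 higher and 3532 lower with TMM, and it called 21 members higher. The count was also 21 without replicate 1 of HDAC1 with TGFB1. The libraries with TGFB1 lay above those in vehicle for 35 members (30% of all genes tested), lay below for Anln (30.7% of all genes tested) and overlapped for 7. Without replicate 1 of the empty vector in vehicle, the library low in heart transcripts, the members called higher numbered 43 for HDAC1 in vehicle, 42 for TGFB1 with the empty vector, 14 for HDAC1 with TGFB1 and 34 for TGFB1 with HDAC1.

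**Figure D1:**
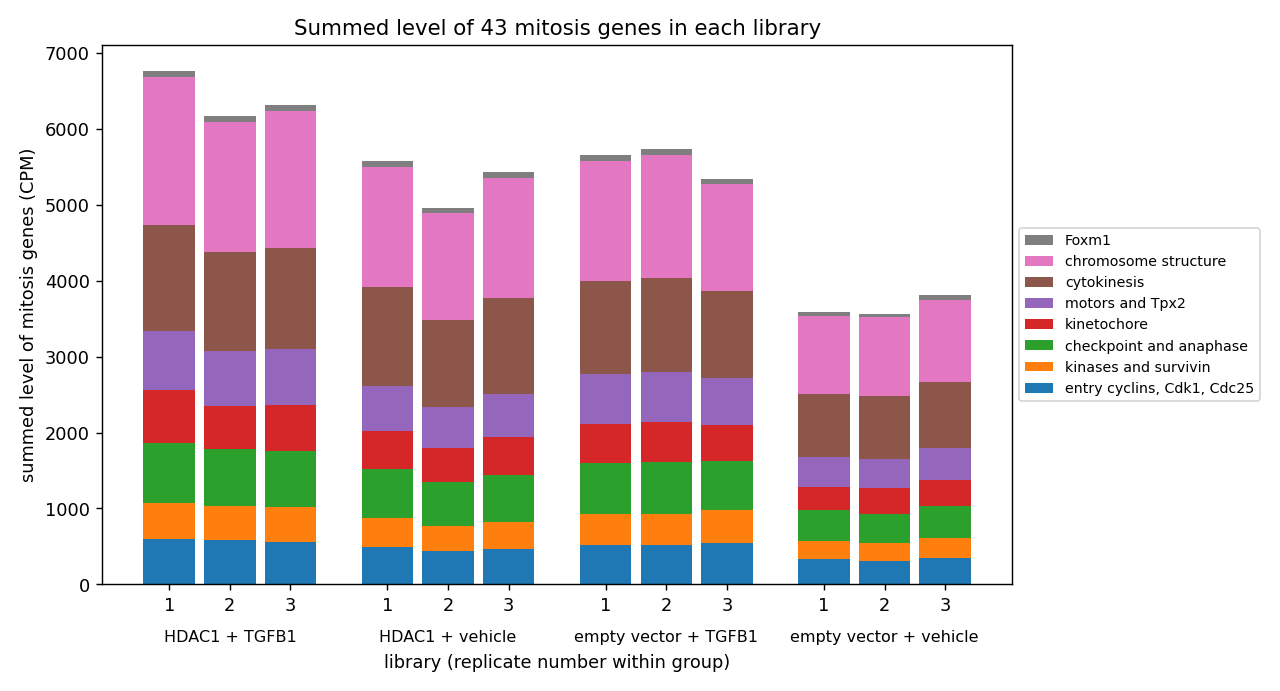
Summed level of the 43 mitosis genes in CPM (vertical axis) in each of 12 libraries (horizontal axis, by group and replicate), with colours for the 8 roles. Long and abundant transcripts weigh most in a sum. The HDAC1 with TGFB1 libraries sum to 6170 to 6764 CPM and those with the empty vector in vehicle to 3564 to 3810 CPM, with the single treatments between them.

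The plot of summed levels shows the order of the groups. The sum was 6764, 6170 and 6317 CPM with HDAC1 and TGFB1, 5574, 4957 and 5424 CPM with HDAC1 in vehicle, 5655, 5734 and 5340 CPM with the empty vector and TGFB1 and 3593, 3564 and 3810 CPM with the empty vector in vehicle. All libraries with HDAC1 and TGFB1 lay above all others, all with the empty vector in vehicle lay below all others, and the single treatments overlapped. The mean sum was 1.45-fold higher with HDAC1 in vehicle, 1.53-fold higher with TGFB1 and 1.76-fold higher with both, each against the empty vector in vehicle. Gene by gene, the empty vector in vehicle had the lowest mean for all 43 members, and HDAC1 with TGFB1 had the highest for 39. The exceptions were Ccnb2, Anln and Ncaph, highest with HDAC1 in vehicle, and Cdk1, highest with the empty vector and TGFB1.

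Cyclin B1 (Ccnb1, ENSRNOG00000058539) and cyclin B2 (Ccnb2, ENSRNOG00000063216) bind Cdk1 to form the kinase that starts mitosis. Ccnb1 was at 181, 176 and 162 CPM with HDAC1 and TGFB1, 129.9, 115 and 126 CPM with HDAC1 in vehicle, 144, 152 and 152 CPM with the empty vector and TGFB1 and 77.7, 70.7 and 80.0 CPM with the empty vector in vehicle. No group overlapped another, and HDAC1 in vehicle stood below the empty vector with TGFB1. The log2 fold change of Ccnb1 against the empty vector in vehicle was 0.70 ± 0.067 (SE) with HDAC1 (edgeR adjusted p = 2.57e-06) and 0.97 ± 0.067 with TGFB1 (edgeR adjusted p = 1.80e-10), the largest TGFB1 rise of its subclass. Ccnb2 was at 81.8, 75.4 and 74.3 CPM with HDAC1 and TGFB1, 84.5, 73.5 and 74.7 CPM with HDAC1 in vehicle, 67.6, 63.7 and 73.8 CPM with the empty vector and TGFB1 and 46.3, 43.3 and 51.6 CPM with the empty vector in vehicle. The 3 treated groups lay close together or overlapped, and all lay above the untreated one. Here the HDAC1 rise, 0.72 ± 0.079 on the log2 scale (edgeR adjusted p = 9.00e-06), was the largest of the subclass, and the TGFB1 rise was 0.53 ± 0.080 (edgeR adjusted p = 9.20e-06). With HDAC1 present, TGFB1 changed Ccnb1 by 0.48 (edgeR adjusted p = 3.60e-06) and Ccnb2 by -0.010 (edgeR adjusted p = 0.927, not called).

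The phosphatases Cdc25b and Cdc25c, which activate Cdk1, had the smallest rises among the entry genes. Cdc25b was at 50.4, 54.3 and 49.6 CPM with HDAC1 and TGFB1, 49.1, 44.3 and 50.2 CPM with HDAC1 in vehicle, 52.8, 49.4 and 49.9 CPM with the empty vector and TGFB1 and 39.1, 37.8 and 40.3 CPM with the empty vector in vehicle. Each treated group lay above the untreated one and overlapped the other treated groups. Its log2 fold change was 0.29 with HDAC1 (edgeR adjusted p = 0.00702), 0.37 with TGFB1 and 0.40 with both. Cdc25c was at 34.0, 32.9 and 31.3 CPM with HDAC1 and TGFB1, 32.7, 30.4 and 29.7 CPM with HDAC1 in vehicle, 30.6, 34.8 and 31.1 CPM with the empty vector and TGFB1 and 25.1, 25.5 and 25.1 CPM with the empty vector in vehicle. It showed the same arrangement, with log2 fold changes of 0.30 with HDAC1, 0.35 with TGFB1 (edgeR adjusted p = 6.12e-04) and 0.38 with both. Cdk1 itself averaged 132 ± 5.76 CPM with HDAC1 and TGFB1, 111 ± 7.07 CPM with HDAC1 in vehicle, 133 ± 15.3 CPM with the empty vector and TGFB1 and 86.0 ± 3.35 CPM with the empty vector in vehicle (SD, n = 3). With TGFB1 present HDAC1 added no detectable Cdk1: the log2 fold change was -0.00047, with a 95% interval of -0.17 to 0.17. Cyclin A2 (Ccna2), which acts with Cdk2 in S phase and with Cdk1 at entry, rose by 0.46 with HDAC1, 0.78 with TGFB1 and 1.01 with both. It was the 1 entry gene called higher with HDAC1 in the presence of TGFB1 (0.23, edgeR adjusted p = 0.0368). Of all genes tested, 2.17% were called higher in that comparison.

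Of the mitotic kinases, Plk1, the polo kinase of mitotic entry, spindle poles and cytokinesis, had the largest single rises. Plk1 was at 136, 146 and 145 CPM with HDAC1 and TGFB1, 117, 104 and 108 CPM with HDAC1 in vehicle, 127, 133 and 127 CPM with the empty vector and TGFB1 and 67.0, 59.9 and 79.3 CPM with the empty vector in vehicle. No group overlapped another, and the order was the same as for Ccnb1. It rose by 0.67 ± 0.080 (SE) with HDAC1 (edgeR adjusted p = 1.84e-05), by 0.90 ± 0.080 with TGFB1 (edgeR adjusted p = 7.16e-09) and by 1.05 ± 0.080 with both on the log2 scale. Aurkb, the Aurora kinase of the chromosomal passenger complex, had the smallest. Aurkb was at 71.8, 65.6 and 70.0 CPM with HDAC1 and TGFB1, 64.5, 54.0 and 65.3 CPM with HDAC1 in vehicle, 61.9, 57.5 and 65.1 CPM with the empty vector and TGFB1 and 48.1, 46.4 and 47.2 CPM with the empty vector in vehicle. All treated libraries lay above all untreated ones, and the 2 single treatments overlapped. It rose by 0.38 with HDAC1 (edgeR adjusted p = 0.00186), by 0.38 with TGFB1 (edgeR adjusted p = 2.74e-04) and by 0.55 with both.

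Birc5 (survivin), a partner of Aurkb in the passenger complex, averaged 82.9 ± 2.32 CPM with HDAC1 and TGFB1, 63.5 ± 3.90 CPM with HDAC1 in vehicle, 73.8 ± 6.22 CPM with the empty vector and TGFB1 and 44.1 ± 2.98 CPM with the empty vector in vehicle (SD, n = 3). Its log2 rises were 0.53 with HDAC1 and 0.74 with TGFB1. Aurka, the Aurora kinase of spindle poles, rose by 0.54 with HDAC1, 0.80 with TGFB1 and 0.93 with both. Plk4, the kinase of centriole duplication, was the most uneven of the subclass, with a rise of 0.44 for HDAC1 and 0.88 for TGFB1. None of the 5 genes was called higher with HDAC1 in the presence of TGFB1, where their log2 fold changes ran from 0.13 to 0.17. Of all genes tested, 2.17% were called higher there. TGFB1 in the presence of HDAC1 raised 4 of the 5, the exception being Aurkb (0.17, edgeR adjusted p = 0.0612). In that comparison 24.9% of all genes tested were called higher.

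**Figure D2:**
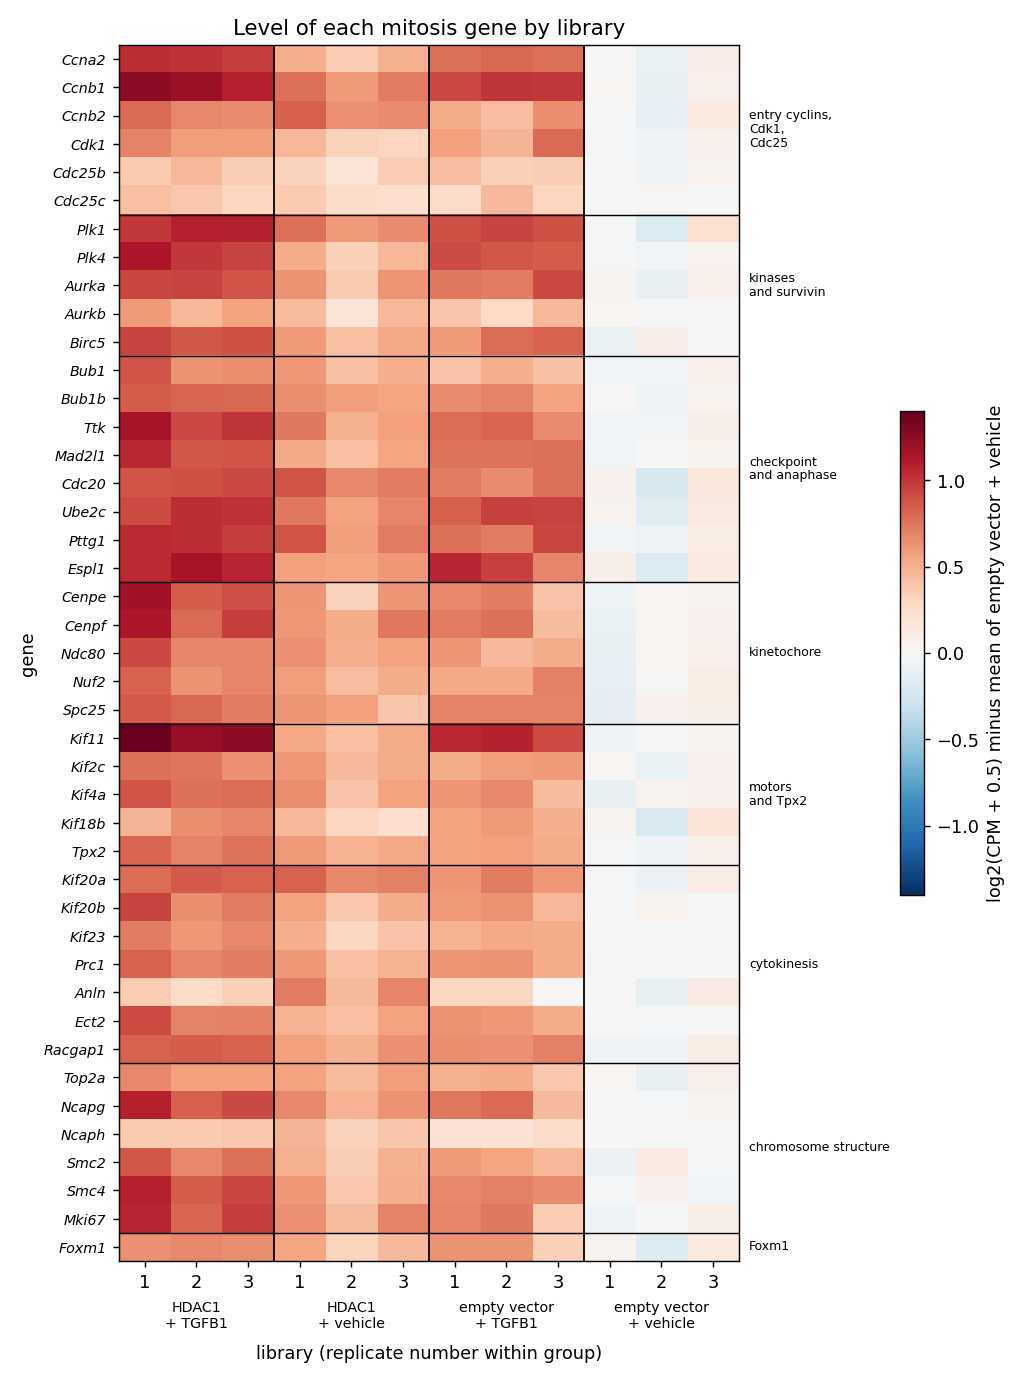
Level of each of 43 mitosis genes (rows, by role) in each of 12 libraries (columns), as log2(CPM + 0.5) minus the gene's mean over the 3 libraries with the empty vector in vehicle. Red marks higher levels, which fill the 9 treated columns for nearly every gene. The deepest red is in the columns with HDAC1 and TGFB1, whereas Anln is pale there and redder with HDAC1 in vehicle.

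The spindle checkpoint and anaphase genes held the 2 largest HDAC1 rises in vehicle of the 43 members, those of Cdc20 and Pttg1. Cdc20, the activator of the anaphase-promoting complex and the target of the checkpoint, was at 78.6, 79.5 and 81.3 CPM with HDAC1 and TGFB1, 78.9, 68.4 and 70.5 CPM with HDAC1 in vehicle, 70.8, 67.8 and 72.7 CPM with the empty vector and TGFB1 and 44.5, 36.5 and 47.5 CPM with the empty vector in vehicle. The treated groups lay far above the untreated one, and HDAC1 in vehicle overlapped both other treated groups. Its log2 fold change was 0.76 ± 0.081 (SE) with HDAC1 (edgeR adjusted p = 7.32e-06), 0.71 ± 0.082 with TGFB1 (edgeR adjusted p = 3.16e-07) and 0.89 ± 0.082 with both. Securin (Pttg1), which holds separase inactive, was at 39.9, 39.7 and 38.1 CPM with HDAC1 and TGFB1, 35.7, 29.0 and 32.1 CPM with HDAC1 in vehicle, 33.1, 31.9 and 37.2 CPM with the empty vector and TGFB1 and 18.7, 18.2 and 20.7 CPM with the empty vector in vehicle. HDAC1 in vehicle overlapped the empty vector with TGFB1, and both lay below HDAC1 with TGFB1. It rose by 0.75 with HDAC1 (edgeR adjusted p = 1.79e-05) and by 0.82 with TGFB1 (edgeR adjusted p = 1.31e-07).

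Ube2c, the ubiquitin-conjugating enzyme of the anaphase-promoting complex, was at 52.6, 57.1 and 56.3 CPM with HDAC1 and TGFB1, 46.7, 41.1 and 44.8 CPM with HDAC1 in vehicle, 49.9, 54.2 and 53.8 CPM with the empty vector and TGFB1 and 28.7, 24.6 and 30.3 CPM with the empty vector in vehicle. It was the member of this subclass with the largest TGFB1 rise, 0.91 ± 0.081 on the log2 scale (edgeR adjusted p = 6.87e-09), and HDAC1 in vehicle raised it by 0.66 ± 0.080 (edgeR adjusted p = 2.15e-05). With TGFB1 present, HDAC1 and empty vector libraries overlapped and the log2 fold change was 0.074 (edgeR adjusted p = 0.615). Espl1 (separase), the protease that opens the cohesin ring, averaged 93.3 ± 4.09 CPM with HDAC1 and TGFB1, 65.3 ± 1.19 CPM with HDAC1 in vehicle, 82.2 ± 11.0 CPM with the empty vector and TGFB1 and 43.8 ± 5.04 CPM with the empty vector in vehicle (SD, n = 3). It rose by 0.57 with HDAC1 and 0.90 with TGFB1.

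Among the checkpoint kinases and their partners, Bub1b (BubR1), a subunit of the complex that inhibits Cdc20, was at 111, 108 and 107 CPM with HDAC1 and TGFB1, 96.5, 91.6 and 89.9 CPM with HDAC1 in vehicle, 96.9, 99.2 and 90.7 CPM with the empty vector and TGFB1 and 61.9, 58.4 and 63.1 CPM with the empty vector in vehicle. The single treatments overlapped, and no library of either reached those with both. Its rises were 0.60 with HDAC1 (edgeR adjusted p = 3.70e-06), 0.64 with TGFB1 (edgeR adjusted p = 2.19e-08) and 0.82 with both. Bub1, a kinase of the kinetochore, was at 174, 146 and 148 CPM with HDAC1 and TGFB1, 144, 126 and 134 CPM with HDAC1 in vehicle, 125, 135 and 126 CPM with the empty vector and TGFB1 and 92.0, 92.1 and 99.4 CPM with the empty vector in vehicle. The single treatments overlapped, and both lay below HDAC1 with TGFB1. It had the smallest TGFB1 rise of the subclass, 0.44 (edgeR adjusted p = 3.06e-05), and an HDAC1 rise of 0.51 (edgeR adjusted p = 8.30e-05). Mad2l1 (Mad2), which captures Cdc20 at unattached kinetochores, was at 151, 133 and 134 CPM with HDAC1 and TGFB1, 105, 97.0 and 107 CPM with HDAC1 in vehicle, 123, 123 and 124 CPM with the empty vector and TGFB1 and 70.5, 71.9 and 74.8 CPM with the empty vector in vehicle. No groups overlapped, and its HDAC1 rise of 0.51 (edgeR adjusted p = 3.08e-05) was the smallest of the 8 while its TGFB1 rise was 0.77. Ttk (Mps1), the kinase at the top of the checkpoint, rose by 0.61 with HDAC1, 0.76 with TGFB1 and 1.03 with both, and Bub1 and Ttk were the 2 members of the subclass called higher with HDAC1 in the presence of TGFB1.

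The kinetochore genes were the most even subclass under HDAC1 in vehicle, with log2 rises from 0.52 to 0.62. Cenpf, a large protein of the outer kinetochore, had the largest. Cenpf was at 265, 209 and 236 CPM with HDAC1 and TGFB1, 184, 173 and 201 CPM with HDAC1 in vehicle, 199.8, 206 and 164 CPM with the empty vector and TGFB1 and 113, 123 and 126 CPM with the empty vector in vehicle. The single treatments overlapped, and HDAC1 with TGFB1 lay above both. It rose by 0.62 with HDAC1 (edgeR adjusted p = 1.35e-04), 0.66 with TGFB1 and 0.97 with both. Nuf2, Ndc80 and Spc25 are subunits of the Ndc80 complex, which grips spindle microtubules. Nuf2 had the smallest HDAC1 rise (0.52, edgeR adjusted p = 1.14e-04) and was at 89.1, 77.4 and 80.8 CPM with HDAC1 and TGFB1, 75.5, 67.6 and 72.1 CPM with HDAC1 in vehicle, 72.6, 72.2 and 82.0 CPM with the empty vector and TGFB1 and 46.1, 50.4 and 53.7 CPM with the empty vector in vehicle. Ndc80 had the smallest TGFB1 rise (0.53, edgeR adjusted p = 7.01e-06) and was at 92.5, 77.8 and 78.0 CPM with HDAC1 and TGFB1, 75.7, 68.8 and 71.7 CPM with HDAC1 in vehicle, 74.8, 66.3 and 69.6 CPM with the empty vector and TGFB1 and 45.1, 49.2 and 51.0 CPM with the empty vector in vehicle. Spc25 had the largest TGFB1 rise (0.70, edgeR adjusted p = 3.18e-07) and was at 46.5, 44.8 and 42.3 CPM with HDAC1 and TGFB1, 39.2, 38.1 and 33.3 CPM with HDAC1 in vehicle, 41.5, 41.5 and 41.3 CPM with the empty vector and TGFB1 and 23.0, 26.5 and 26.9 CPM with the empty vector in vehicle. For all 3 subunits the treated groups lay above the untreated one, the single treatments overlapped for Nuf2 and Ndc80, and the TGFB1 groups overlapped for Nuf2. No groups overlapped for Spc25. Cenpe, a kinesin that brings chromosomes to the spindle equator, averaged 169.5 ± 20.9 CPM with HDAC1 and TGFB1, 123 ± 13.8 CPM with HDAC1 in vehicle, 130.0 ± 15.1 CPM with the empty vector and TGFB1 and 85.5 ± 3.93 CPM with the empty vector in vehicle (SD, n = 3). Its HDAC1 rise in the presence of TGFB1, 0.38 ± 0.097 (SE; edgeR adjusted p = 0.0266), was the largest of all 43 members.

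Among the spindle motors, Kif11 (Eg5), the kinesin that pushes spindle poles apart, stood out under TGFB1. Kif11 was at 279.5, 250.2 and 255 CPM with HDAC1 and TGFB1, 156, 144 and 154 CPM with HDAC1 in vehicle, 224, 228 and 202 CPM with the empty vector and TGFB1 and 104, 108 and 110.0 CPM with the empty vector in vehicle. No groups overlapped, and the libraries with TGFB1 lay far above those without. Its log2 rise with TGFB1, 1.02 ± 0.065 (SE; edgeR adjusted p = 5.20e-11), was the largest of the 43, as was its rise with both (1.29 ± 0.066, edgeR adjusted p = 1.16e-12), while HDAC1 in vehicle gave 0.50 ± 0.065 (edgeR adjusted p = 4.29e-05). Kif4a, a kinesin of chromosome arms and the central spindle, was at 101, 93.3 and 94.6 CPM with HDAC1 and TGFB1, 86.0, 71.9 and 80.8 CPM with HDAC1 in vehicle, 83.9, 87.5 and 74.5 CPM with the empty vector and TGFB1 and 50.7, 56.4 and 56.9 CPM with the empty vector in vehicle. The single treatments overlapped, and it rose by 0.54 with HDAC1 (edgeR adjusted p = 8.51e-05), the largest HDAC1 rise of the subclass, and by 0.59 with TGFB1. Kif18b, a kinesin that trims the plus ends of astral microtubules, was at 63.1, 71.5 and 72.7 CPM with HDAC1 and TGFB1, 62.5, 55.9 and 53.4 CPM with HDAC1 in vehicle, 67.3, 68.7 and 64.3 CPM with the empty vector and TGFB1 and 46.3, 38.8 and 51.4 CPM with the empty vector in vehicle. Both TGFB1 groups overlapped and lay above HDAC1 in vehicle. Its HDAC1 rise of 0.33 (edgeR adjusted p = 0.0158) and its TGFB1 rise of 0.55 (edgeR adjusted p = 2.79e-05) were the smallest of the subclass. Kif2c (MCAK), which depolymerises microtubules at centromeres, rose by 0.53 with HDAC1 and 0.57 with TGFB1. Tpx2, which activates Aurka on the spindle, rose by 0.54 with HDAC1, 0.55 with TGFB1 and 0.76 with both.

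Of the central spindle and cytokinesis genes, Kif20a (MKLP2), the kinesin that carries the passenger complex to the central spindle, had the largest HDAC1 rise. Kif20a was at 147, 155 and 151 CPM with HDAC1 and TGFB1, 151, 137 and 139.6 CPM with HDAC1 in vehicle, 131, 141 and 130.0 CPM with the empty vector and TGFB1 and 84.1, 80.7 and 91.4 CPM with the empty vector in vehicle. HDAC1 in vehicle overlapped both other treated groups, and every treated library was far above the untreated ones. Its log2 rises were 0.74 ± 0.065 (SE) with HDAC1 (edgeR adjusted p = 1.59e-06), 0.65 ± 0.065 with TGFB1 (edgeR adjusted p = 4.29e-08) and 0.82 ± 0.065 with both. Racgap1, the GTPase-activating subunit of centralspindlin, had the largest TGFB1 rise of the subclass and was at 182, 184 and 181 CPM with HDAC1 and TGFB1, 153, 144 and 159.7 CPM with HDAC1 in vehicle, 160.1, 159.9 and 167 CPM with the empty vector and TGFB1 and 98.2, 99.0 and 109.5 CPM with the empty vector in vehicle. No groups overlapped, and its rises were 0.57 with HDAC1 (edgeR adjusted p = 7.21e-06) and 0.67 with TGFB1 (edgeR adjusted p = 1.33e-08). Its partner Kif23 (MKLP1) had the smallest HDAC1 rise of the subclass, 0.40 (edgeR adjusted p = 1.64e-04), and was at 172, 159.6 and 166 CPM with HDAC1 and TGFB1, 149, 127 and 138 CPM with HDAC1 in vehicle, 146, 151 and 149.8 CPM with the empty vector and TGFB1 and 104, 104 and 106 CPM with the empty vector in vehicle. The single treatments overlapped, and HDAC1 with TGFB1 lay above both.

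Anln (anillin), the scaffold that ties actin, septins and RhoA together at the cleavage furrow, was the 1 member for which the 3 libraries with HDAC1 in vehicle lay above all 9 others. Anln was at 251, 236 and 246 CPM with HDAC1 and TGFB1, 325, 268 and 315 CPM with HDAC1 in vehicle, 240.2, 241 and 198 CPM with the empty vector and TGFB1 and 195, 181 and 212 CPM with the empty vector in vehicle. The empty vector with TGFB1 overlapped both HDAC1 with TGFB1 and the empty vector in vehicle. HDAC1 in vehicle raised it by 0.63 ± 0.083 (SE; edgeR adjusted p = 4.97e-05) and TGFB1 with the empty vector by 0.21 ± 0.083 (edgeR adjusted p = 0.0415), the smallest TGFB1 rise of the 43. That TGFB1 call was lost in 11 of 20 alternatives, among them the fits without any 1 of the 3 libraries with HDAC1 and TGFB1, without replicate 3 of HDAC1 in vehicle, without replicate 1 or replicate 2 of the empty vector with TGFB1, and without replicate 1 or replicate 2 of the empty vector in vehicle. In the presence of HDAC1, TGFB1 lowered Anln (log2 fold change -0.31 ± 0.082, edgeR adjusted p = 0.00388), the 1 member that fell with either factor. Prc1, which bundles the antiparallel microtubules of the central spindle, rose by 0.51 with HDAC1, 0.59 with TGFB1 and 0.75 with both. Ect2, the exchange factor that activates RhoA at the furrow, rose by 0.50, 0.59 and 0.78 in the same comparisons, and Kif20b, a kinesin of late cytokinesis, by 0.50, 0.57 and 0.78.

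The chromosome structure genes contain the core of condensin I, the ring that compacts mitotic chromosomes. Ncapg, 1 of its regulatory subunits, was at 108, 90.4 and 96.3 CPM with HDAC1 and TGFB1, 80.4, 71.1 and 78.1 CPM with HDAC1 in vehicle, 84.6, 87.4 and 69.4 CPM with the empty vector and TGFB1 and 49.5, 49.7 and 51.9 CPM with the empty vector in vehicle. The single treatments overlapped. HDAC1 raised it by 0.60 (edgeR adjusted p = 7.50e-05), the largest HDAC1 rise of the subclass, and TGFB1 raised it by 0.68. Ncaph, the kleisin subunit of the same ring, was at 69.7, 69.4 and 69.8 CPM with HDAC1 and TGFB1, 75.0, 67.4 and 70.6 CPM with HDAC1 in vehicle, 62.0, 61.8 and 64.9 CPM with the empty vector and TGFB1 and 53.6, 53.5 and 54.2 CPM with the empty vector in vehicle. Untreated libraries lay below all others, and TGFB1 with the empty vector lay between them and both HDAC1 groups, which overlapped. Its rises of 0.40 with HDAC1 (edgeR adjusted p = 1.55e-04) and 0.23 with TGFB1 (edgeR adjusted p = 0.00440) were the smallest of the subclass.

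Smc4 and Smc2 are the ATPase arms of condensin. Smc4 was at 313, 266 and 281 CPM with HDAC1 and TGFB1, 225, 191 and 209.8 CPM with HDAC1 in vehicle, 235, 239 and 232 CPM with the empty vector and TGFB1 and 145, 154 and 143 CPM with the empty vector in vehicle. No groups overlapped, and its TGFB1 rise of 0.68 (edgeR adjusted p = 6.21e-08) was the largest of the subclass, beside 0.51 with HDAC1 (edgeR adjusted p = 6.58e-05). Smc2 rose by 0.45 with HDAC1, 0.54 with TGFB1 and 0.77 with both. Ncapg, Smc2, Smc4 and Mki67 made this the subclass with the most calls for HDAC1 in the presence of TGFB1, 4 of 6. Of all genes tested, 2.17% were called higher in that comparison. No member of any role was called there without replicate 1 or without replicate 3 of HDAC1 with TGFB1. The difference between subclasses was not tested. Mki67, which coats mitotic chromosomes and is read as a marker of cycling cells, averaged 568 ± 49.7 CPM with HDAC1 and TGFB1, 444 ± 41.1 CPM with HDAC1 in vehicle, 446 ± 62.0 CPM with the empty vector and TGFB1 and 294 ± 15.7 CPM with the empty vector in vehicle (SD, n = 3). Top2a, the topoisomerase that untangles sister chromatids, rose by 0.53 with HDAC1, 0.46 with TGFB1 and 0.61 with both. TGFB1 in the presence of HDAC1 changed neither Top2a (0.078, edgeR adjusted p = 0.343) nor Ncaph (-0.028, edgeR adjusted p = 0.729) past the threshold.

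Foxm1, the transcription factor that activates many of the genes above, was at 84.4, 86.2 and 84.6 CPM with HDAC1 and TGFB1, 79.2, 67.1 and 73.8 CPM with HDAC1 in vehicle, 83.4, 83.8 and 68.2 CPM with the empty vector and TGFB1 and 55.9, 47.3 and 59.0 CPM with the empty vector in vehicle. All treated libraries lay above all untreated ones, and the single treatments overlapped. It rose by 0.44 ± 0.087 (SE) with HDAC1 (edgeR adjusted p = 0.00183), 0.53 ± 0.088 with TGFB1 (edgeR adjusted p = 3.38e-05) and 0.65 ± 0.088 with both (edgeR adjusted p = 2.17e-06). In the presence of TGFB1, HDAC1 changed it by 0.12 (edgeR adjusted p = 0.450, not called).

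The next question was whether the 2 changes added up on the log2 scale. For all 43 members the change with both was smaller than the sum of the single changes. The sum had a median of 1.19 (from 0.63 to 1.67) and the combined change a median of 0.81. The combined change was 37.8% of the sum for Anln, 86.9% for Cenpe and 69.4% at the median. The gap between them is by construction the interaction term, the HDAC1 effect with TGFB1 minus the HDAC1 effect in vehicle, which was negative for all 43 with a median of -0.33 (from -0.59 to -0.15). Over all genes tested the median interaction was 0.0071, and 51.3% of the estimates were above 0. The interaction was also negative for 20 of 20 heart transcripts (median -1.92) and 17 of 18 brain transcripts (median -1.90). By edgeR, 0 of the 20 heart and 1 of the 18 brain transcripts were called in it. In the presence of TGFB1, the median HDAC1 change was -1.53 for heart and -1.51 for brain transcripts, beside 0.18 for the mitosis genes. Without replicate 1 of the empty vector in vehicle, the medians were -0.29 for the mitosis genes, -1.46 for the heart transcripts and -1.38 for the brain transcripts. Their part in the interaction was not tested. At an unadjusted p under 0.05 stood 40 of the 43, against 12.9% of all genes tested, and the exceptions were Aurkb, Cenpe and Mki67.

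**Figure D3:**
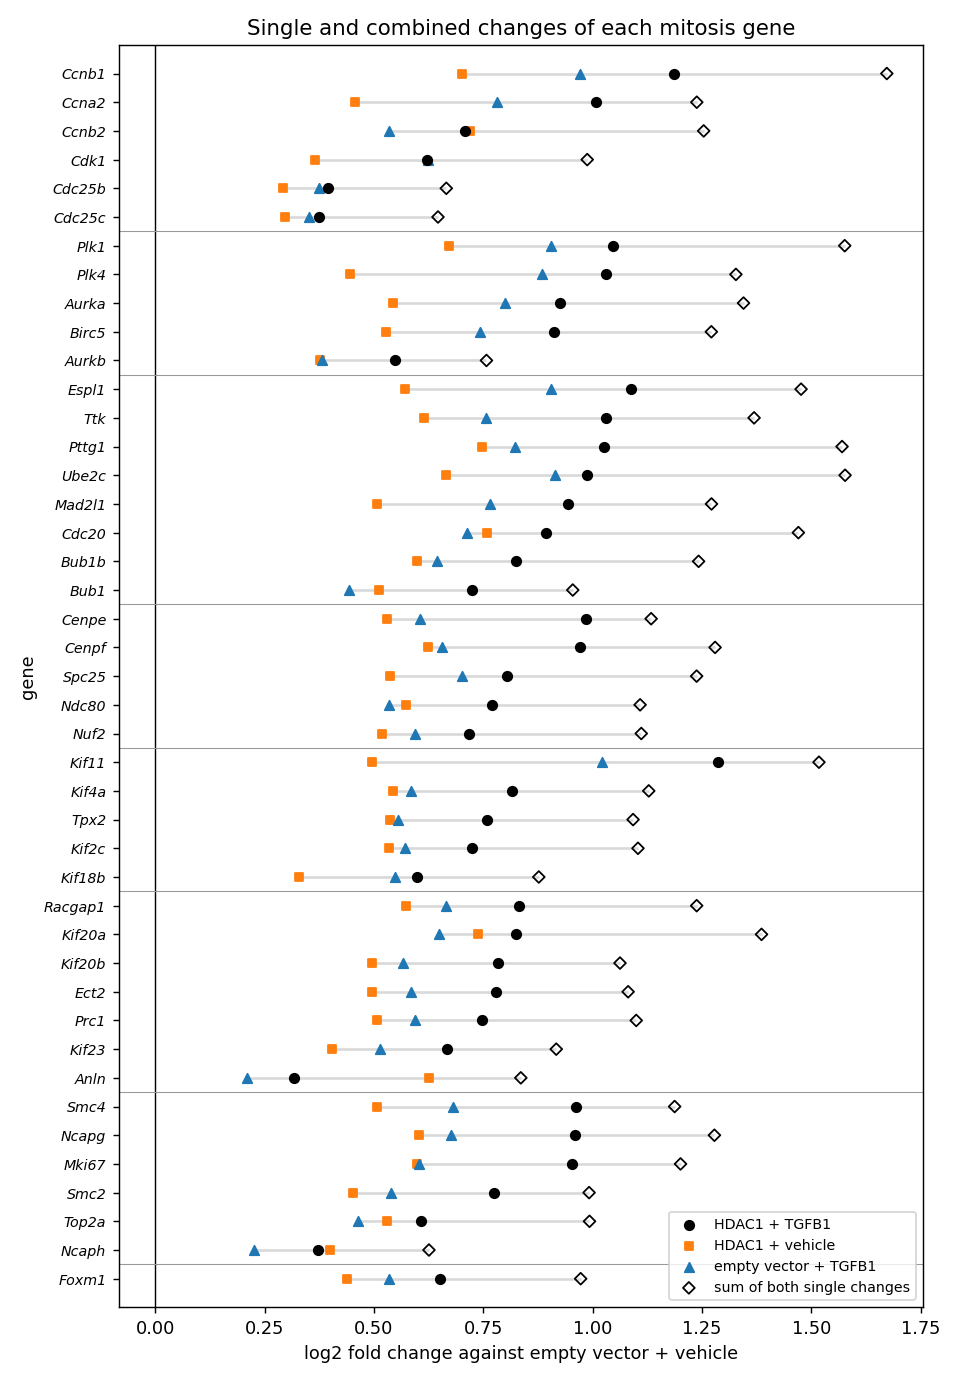
Log2 fold change of each mitosis gene against the empty vector in vehicle (horizontal axis) for HDAC1 with TGFB1 (circle), HDAC1 in vehicle (square) and the empty vector with TGFB1 (triangle), with the sum of both single changes (diamond). For all 43 genes the circle lies left of the diamond. The gap is widest for Ube2c (-0.59) and narrowest for Cenpe (-0.15).

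After adjustment over all genes tested, 9 of 43 members were called with a negative interaction by edgeR, where 0.342% of all genes tested were called negative and 0.137% positive. They were Ccnb1 (-0.49 ± 0.094, SE; edgeR adjusted p = 0.0262), Ccnb2 (-0.54 ± 0.11; 0.0301), Plk1 (-0.53 ± 0.11; 0.0337), Bub1b (-0.42 ± 0.086; 0.0301), Cdc20 (-0.58 ± 0.11; 0.0287), Ube2c (-0.59 ± 0.11; 0.0262), Pttg1 (-0.54 ± 0.12; 0.04997), Kif20a (-0.56 ± 0.091; 0.0153) and Racgap1 (-0.41 ± 0.086; 0.0341). The count was 18 with no filter on low counts, where 390 of 30321 genes tested were called negative. It was 16 with the DESeq2 test, where 156 of 15581 genes tested were called negative. With DESeq2 size factors it was 8, without Pttg1, and 49 of 14601 genes tested were called negative. Anln stood just outside (-0.52 ± 0.12; edgeR adjusted p = 0.0512). By role, 4 of the 9 belong to the checkpoint and anaphase genes and none to the kinetochore, spindle motor or chromosome structure members. Outside the members, 3 of 31 other kinetochore genes were called negative, Cenph (-0.64), Spc24 (-0.63) and Cenpw (-0.55). So were 4 of 31 other spindle, passenger and cytokinesis genes. The subclass medians ran from -0.25 for chromosome structure to -0.40 for the checkpoint and anaphase genes, and the difference between subclasses was not tested. Scaled by library totals alone, 19 of all genes tested were called positive and 84 negative, against 20 and 50 with TMM.

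These calls were sensitive to single libraries. None of the members was called without replicate 1 or without replicate 3 of HDAC1 with TGFB1. The count was 1 (Kif20a) without replicate 1 or replicate 3 of HDAC1 in vehicle or without replicate 2 of the empty vector in vehicle. It was 3 (Ccnb1, Ube2c and Kif20a) without replicate 2 of HDAC1 with TGFB1 or replicate 1 of the empty vector with TGFB1, and 4 without replicate 1 of the empty vector in vehicle, the library low in heart transcripts. Leaving out any other library gave 7 to 13 calls. The estimate was negative for all 43 members in each of these fits.

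**Figure D4:**
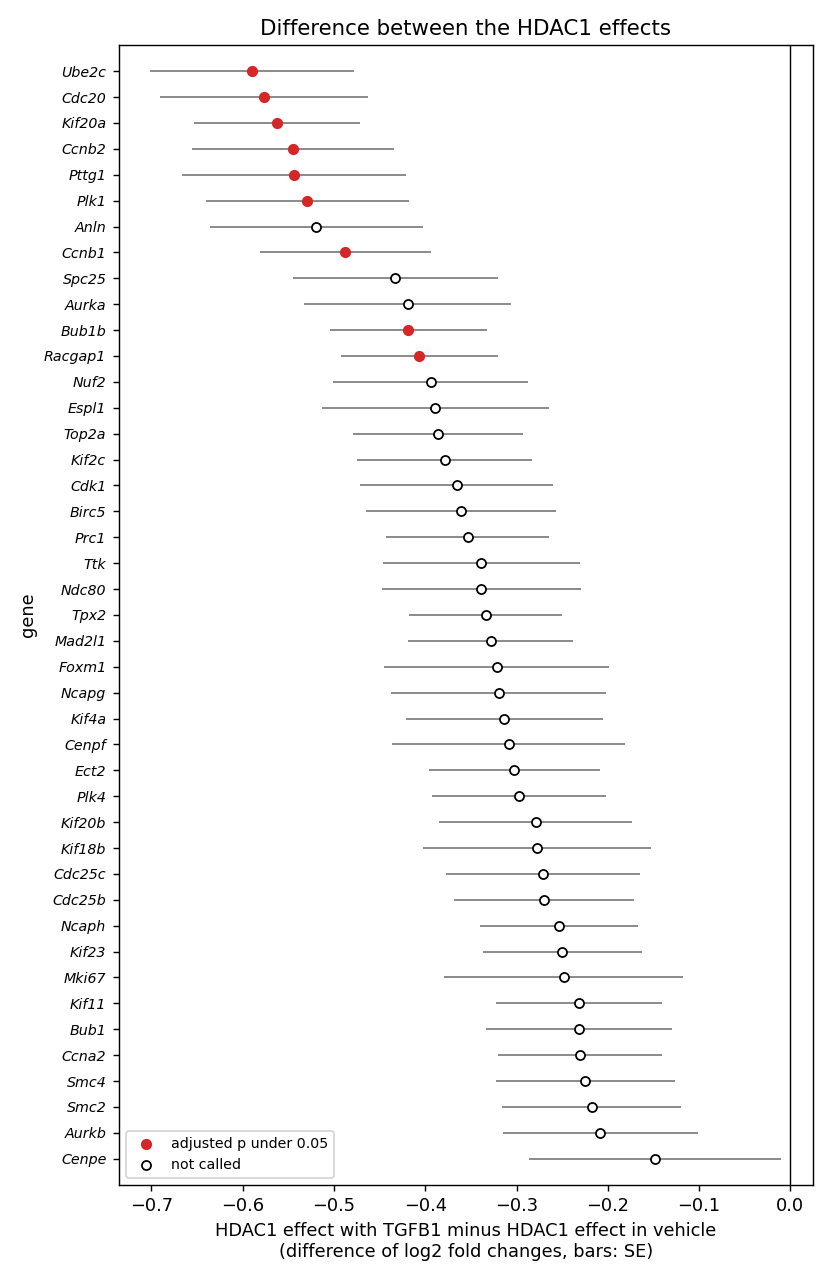
Interaction estimate of each mitosis gene (HDAC1 effect with TGFB1 minus HDAC1 effect in vehicle, difference of log2 fold changes, horizontal axis) with its standard error as a bar. Filled red points mark the 9 genes with an edgeR adjusted p under 0.05, and all 43 points lie left of 0, from -0.59 for Ube2c to -0.15 for Cenpe.

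The promoters of 7 of the 9 genes called in the interaction are shown. Ube2c and Racgap1 were not among the 36 members with 1 entry in the promoter table. All 43 members rose in both single comparisons, so that rise does not set the 7 genes apart. Their promoters are given because a pair of sequence elements is known from promoters of G2 and mitosis genes. These are the CHR element (TTTGAA or TTCGAA), which the MuvB complex contacts, and the CCAAT box, bound by NF-Y. The 120 bases before the annotated start, from RefSeq on the rat assembly GRCr8, run 5′ to 3′ on the strand of the gene. They lie at chr2:33655226-33655345 (minus strand) for Ccnb1, chr8:79981659-79981778 (minus) for Ccnb2, chr1:186147538-186147657 (plus) for Plk1, chr3:126016947-126017066 (plus) for Bub1b, chr5:137255800-137255919 (minus) for Cdc20, chr10:28406327-28406446 (minus) for Pttg1 and chr18:26504302-26504421 (plus) for Kif20a. Capitals mark matches to the letters of the CCAAT box or the CHR element on either strand, so that a match on the other strand appears as its reverse complement, such as ATTGG for the CCAAT box.
Ccnb1: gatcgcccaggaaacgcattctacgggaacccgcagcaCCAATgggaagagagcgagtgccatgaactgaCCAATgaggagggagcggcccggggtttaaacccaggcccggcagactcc
Ccnb2: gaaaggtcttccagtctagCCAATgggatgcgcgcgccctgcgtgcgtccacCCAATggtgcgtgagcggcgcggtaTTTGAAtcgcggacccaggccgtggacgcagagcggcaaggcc
Plk1: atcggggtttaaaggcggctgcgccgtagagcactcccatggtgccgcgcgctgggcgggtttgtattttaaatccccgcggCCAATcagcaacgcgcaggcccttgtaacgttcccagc
Bub1b: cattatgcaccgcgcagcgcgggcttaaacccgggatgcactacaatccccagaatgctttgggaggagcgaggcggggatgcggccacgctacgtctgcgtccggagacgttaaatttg
Cdc20: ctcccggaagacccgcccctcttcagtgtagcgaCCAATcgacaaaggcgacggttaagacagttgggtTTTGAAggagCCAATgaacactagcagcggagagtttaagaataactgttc
Pttg1: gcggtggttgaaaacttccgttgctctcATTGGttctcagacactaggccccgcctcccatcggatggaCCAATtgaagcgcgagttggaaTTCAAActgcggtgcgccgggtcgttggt
Kif20a: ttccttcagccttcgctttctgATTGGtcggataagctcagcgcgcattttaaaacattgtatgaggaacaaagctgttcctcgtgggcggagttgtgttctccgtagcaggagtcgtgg

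In these windows Ccnb2, Cdc20 and Pttg1 hold both elements. Ccnb1, Plk1 and Kif20a hold CCAAT and no match to TTTGAA or TTCGAA, and Bub1b holds no match to any of these letters. Bub1b has TTCGAA at -225, outside its window. No other spelling of the CHR element was searched, so the lack of a match does not show that a promoter lacks the element. Over the 250 bases before the start, 36 members had 1 entry in the promoter table. A CCAAT on either strand was found in 26 of them (72.2%), against 36% of the 9418 tested genes with 1 entry. TTTGAA or TTCGAA within 100 bases of the start was found in 16 (44.4%), against 3.79%, and both in 15 (41.7%), against 1.6%. Over all 33469 promoters in the table these shares were 34% for CCAAT, 6.18% for the CHR letters and 2.26% for both. The 15 members with both had a median HDAC1 rise in vehicle of 0.53 and the 21 others 0.53, and the median TGFB1 rises were 0.62 and 0.60. The median interaction was -0.36 for members with both and -0.31 for the others. Of 118 tested genes outside the members and other lists that hold both elements, 16.9% were called higher and 7.63% lower with HDAC1 in vehicle. Of the 9092 without both, 6.12% were called higher and 8.19% lower. The median log2 fold changes were 0.075 and -0.015. With TGFB1 and the empty vector, 32.2% of the 118 were called higher and 20.3% lower, against 28% and 26.5% of the 9092. The part of these elements in the changes was not tested.

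Which single treatment moved a gene more was compared directly, as HDAC1 in vehicle against the empty vector with TGFB1. This comparison was added after the data were seen. Of the 43 members 2 were called higher and 13 lower, where 19.7% of all genes tested were called higher and 21.5% lower, and the median log2 difference was -0.082 (from -0.53 to 0.42), beside -0.0091 over all genes tested. Lower with HDAC1 alone were Kif11 (-0.53 ± 0.064, SE; edgeR adjusted p = 1.09e-06), Plk4 (-0.44 ± 0.067; 1.98e-05), Ccna2 (-0.33), Espl1 (-0.33), Ccnb1 (-0.27), Cdk1 (-0.26), Aurka (-0.26), Mad2l1 (-0.26), Ube2c (-0.25), Plk1 (-0.23), Birc5 (-0.22), Kif18b (-0.22) and Smc4 (-0.17). Higher with HDAC1 alone were Anln (0.42 ± 0.083; edgeR adjusted p = 3.57e-04) and Ncaph (0.17 ± 0.061; edgeR adjusted p = 0.0256). Among the lower members, the call was lost in 19 of 20 alternatives for Smc4, 15 for Kif18b, 10 for Birc5 and 9 for Plk1. It was lost in 5 for Ube2c, 4 for Aurka, 4 for Cdk1 and 1 for Espl1, and in 0 for the others. Among the higher members, it was lost in 2 for Ncaph and 0 for Anln. All 5 kinetochore genes were uncalled. The libraries lay apart, with HDAC1 alone below, for 14 members and above for 2, shares that were 25.9% and 24.4% over all genes tested. Scaled by library totals alone, 3758 of all genes tested were called higher and 2248 lower, against 2875 and 3136 with TMM, and the members divided into 4 higher and 6 lower. The count of lower members was also 6 without replicate 2 of HDAC1 in vehicle or replicate 3 of the empty vector with TGFB1, and 8 without replicate 3 of HDAC1 in vehicle or replicate 2 of the empty vector with TGFB1. The count of higher members was 1 without replicate 1 of HDAC1 in vehicle.

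Genes of the same process outside the 45 were read from lists, which were chosen with earlier results of these data known. They are set beside all genes tested, of which 6.64% were called higher and 7.32% lower with HDAC1 in vehicle. With TGFB1 and the empty vector, 25.9% of all genes tested were called higher and 25% lower. Of 31 other kinetochore genes tested, HDAC1 in vehicle raised 23 and lowered none (median 0.46), and TGFB1 with the empty vector raised 29 (median 0.57). Examples are Cenpn (0.58 with HDAC1 and 0.81 with TGFB1), a subunit of the inner kinetochore that reads the centromere, and Ska3 (0.52 and 0.88), which couples kinetochores to microtubule ends. Of 31 other spindle, passenger and cytokinesis genes, 27 rose with HDAC1 in vehicle (median 0.49) and 29 with TGFB1 (median 0.61), among them Dlgap5 (0.59 and 0.68), a spindle assembly factor, and Hmmr (0.71 with HDAC1). Of 22 other regulators of entry and exit, 19 rose with HDAC1 (median 0.38), and 20 rose and 1 fell with TGFB1 (median 0.52). Mastl, the Greatwall kinase that shields Cdk1 substrates from a phosphatase, rose by 0.61 with HDAC1 and 0.73 with TGFB1.

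**Figure D5:**
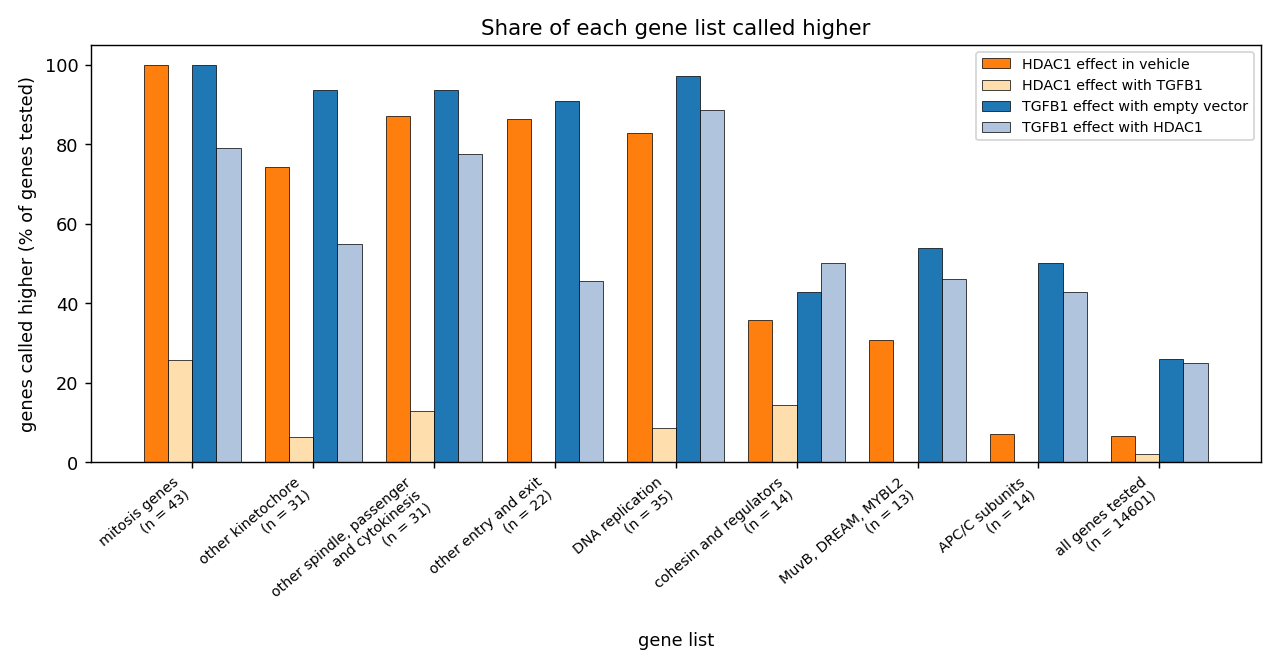
Share of each gene list called higher (vertical axis, percent of its genes tested) for the effect of HDAC1 (in vehicle, then with TGFB1) and of TGFB1 (in empty vector cells, then in HDAC1 cells). The lists of mitotic genes and the DNA replication list stand near the top in both single comparisons, and the APC/C subunits stand near all genes tested (6.64%) for HDAC1 in vehicle.

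Lists with smaller shares of called genes were read against the same background, 6.64% higher with HDAC1 in vehicle and 25.9% higher and 25% lower with TGFB1 and the empty vector. Of 14 tested subunits of the anaphase-promoting complex, the ubiquitin ligase that Cdc20 activates, 1 rose with HDAC1 in vehicle (Anapc15, 0.31, edgeR adjusted p = 0.0110) and the median was 0.0056. With TGFB1 and the empty vector, 7 rose and 1 fell (median 0.20), for example Cdc23 (0.39) and Cdc16 (0.42). Of 14 genes of cohesin and its regulators, 5 rose with HDAC1 in vehicle (median 0.097), led by Esco2 (0.54), an acetyltransferase that locks cohesin on sister chromatids, and Cdca5 (0.48), the protector sororin. With TGFB1, 6 rose and 2 fell.

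Of 13 genes of the MuvB and DREAM complexes with Mybl2, HDAC1 in vehicle raised 4 (median 0.057), where 6.64% of all genes tested were called higher. TGFB1 with the empty vector raised 7 and lowered 2 (median 0.29), where 25.9% were called higher and 25% lower. Mybl2, which joins MuvB to activate mitosis genes, averaged 103 ± 2.85 CPM with HDAC1 and TGFB1, 59.5 ± 3.81 CPM with HDAC1 in vehicle, 95.6 ± 3.21 CPM with the empty vector and TGFB1 and 44.0 ± 6.11 CPM with the empty vector in vehicle (SD, n = 3). No groups overlapped. It rose by 0.43 ± 0.081 (SE) with HDAC1 (edgeR adjusted p = 0.00112), 1.11 ± 0.082 with TGFB1 (edgeR adjusted p = 4.14e-10) and 1.22 ± 0.081 with both. Rbl2 (p130), the pocket protein of DREAM in resting cells, averaged 13.0 ± 0.548 CPM with HDAC1 and TGFB1, 21.3 ± 0.398 CPM with HDAC1 in vehicle, 13.6 ± 2.44 CPM with the empty vector and TGFB1 and 23.7 ± 2.82 CPM with the empty vector in vehicle (SD, n = 3). TGFB1 lowered it, with log2 fold changes of -0.80 ± 0.11 (SE) with the empty vector (edgeR adjusted p = 3.85e-06) and -0.71 ± 0.11 with HDAC1 (edgeR adjusted p = 2.15e-05), and HDAC1 in vehicle changed it by -0.16 (edgeR adjusted p = 0.366, not called).

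The replication genes, which act in S phase before mitosis, were read beside them. Of 35 tested, HDAC1 in vehicle raised 29 (median 0.38), where 6.64% of all genes tested were called higher, and TGFB1 with the empty vector raised 34 (median 0.68), where 25.9% were. Cdc6, which loads the replicative helicase, rose by 0.56 with HDAC1 and 1.08 with TGFB1, and Rrm2, a subunit of ribonucleotide reductase, by 0.64 with HDAC1. In the presence of TGFB1, HDAC1 raised 3 of the 35, with a median of 0.095, where 2.17% of all genes tested were called higher.

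Of the 4 tested inhibitors of cyclin-dependent kinases, Cdkn1b (p27) fell in both single comparisons. Cdkn1b was at 103, 107 and 108 CPM with HDAC1 and TGFB1, 118, 129 and 132 CPM with HDAC1 in vehicle, 102, 111 and 99.5 CPM with the empty vector and TGFB1 and 179, 174 and 163 CPM with the empty vector in vehicle. The untreated libraries lay above all others. Its log2 fold change was -0.45 ± 0.064 (SE) with HDAC1 in vehicle (edgeR adjusted p = 8.81e-05) and -0.72 ± 0.064 with TGFB1 (edgeR adjusted p = 8.09e-09), and its change with both was -0.70. Its interaction was 0.47 ± 0.091 (edgeR adjusted p = 0.0262), a positive value. That call was lost in 7 of 12 fits with 1 library left out: without any 1 of the 3 libraries with HDAC1 and TGFB1, without replicate 1 or replicate 3 of HDAC1 in vehicle, without replicate 1 of the empty vector with TGFB1 and without replicate 2 of the empty vector in vehicle. Cdkn1a (p21), the inhibitor induced by p53, averaged 168 ± 9.06 CPM with HDAC1 and TGFB1, 190.5 ± 3.66 CPM with HDAC1 in vehicle, 169 ± 9.25 CPM with the empty vector and TGFB1 and 182 ± 12.3 CPM with the empty vector in vehicle (SD, n = 3). HDAC1 in vehicle changed it by 0.064 and TGFB1 with the empty vector by -0.11, neither past the threshold, and TGFB1 with HDAC1 lowered it (-0.18, edgeR adjusted p = 0.0232). Cdkn2c (p18) rose by 0.28 with HDAC1 in vehicle (edgeR adjusted p = 0.00790) and, with HDAC1 present, was lowered by TGFB1 (-0.43, edgeR adjusted p = 3.00e-05). Cdkn2d (p19), which like p18 inhibits Cdk4 and Cdk6, averaged 19.4 ± 2.56 CPM with HDAC1 and TGFB1, 28.2 ± 1.16 CPM with HDAC1 in vehicle, 24.8 ± 2.87 CPM with the empty vector and TGFB1 and 24.6 ± 2.63 CPM with the empty vector in vehicle (SD, n = 3). TGFB1 with HDAC1 lowered it (log2 fold change -0.53 ± 0.10, SE; edgeR adjusted p = 2.36e-04), so that all 4 inhibitors were called lower in that comparison, where 24.2% of all genes tested were. Its interaction was -0.54 (edgeR adjusted p = 0.0939, not called).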

How the data were processed

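Polyadenylated RNA of 12 libraries was measured by RNA sequencing. The authors deposited raw counts for 43360 genes and a table of normalized counts, whose values are a signal made of each count column divided by 1 constant per library for the 14275 genes with at least 100 counts in all; both properties were checked on the values. The submitters' processing notes name Trim Galore 0.6.7, featureCounts of Subread 2.0.1 and DESeq2 1.44. They list mm10, a mouse build, while the identifiers follow Ensembl's rat naming. Aligner, rat build and strand setting are not given in the sources used here. Groups were taken from the titles of the labels, because the treatment field runs through numbered names. Gene symbols came from the normalized table.

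All tests were run on the raw counts with edgeR 4.0.16 in R 4.3.3. The filterByExpr function kept 14601 genes, and libraries were scaled with TMM. A robust quasi-likelihood model with 1 mean per group was fitted to all 12 libraries (8 residual degrees of freedom, common biological coefficient of variation 7.61%). Tests were two-sided. A gene was called when its p, adjusted by Benjamini-Hochberg across the whole table, fell under 0.05. The standard error is the size of the log2 fold change divided by the square root of F. The steps were also tested on simulated data. Alternatives were other scalings, other filters, the test of DESeq2 1.42.0, a fit restricted to the compared groups, replicate number as a block, and omission of single libraries.

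The members and all gene lists were chosen with earlier results of these data known. Values in every library are given for Foxm1, for members called in the interaction, and in each subclass for the members with the largest and the smallest change with HDAC1 in vehicle and with TGFB1 and the empty vector. Of the other lists, up to 4 called members with the smallest adjusted p are named per comparison.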

Additional observations from a re-analysis of the deposited data

Results flagged for a closer look

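The difference between the HDAC1 effects, with TGFB1 minus in vehicle, passed the edgeR interaction test for 20 of the mitosis and other cell cycle genes listed and for 1 of the marker transcripts, and each is given as a log2 difference. Over all genes tested, 0.342% were called negative and 0.137% positive. Among the mitosis genes it was -0.59 for Ube2c, -0.58 for Cdc20, -0.56 for Kif20a, -0.54 for Ccnb2, -0.54 for Pttg1, -0.53 for Plk1, -0.49 for Ccnb1, -0.42 for Bub1b and -0.41 for Racgap1. Among other kinetochore genes it was -0.64 for Cenph, -0.63 for Spc24 and -0.55 for Cenpw. Among other spindle and passenger genes it was -0.56 for Fam83d, -0.46 for Kif22, -0.45 for Cdca8 and -0.43 for Dlgap5. The regulators of entry and exit Cdkn3 and Cdca3 had -0.81 and -0.59, and the replication gene Cdc6 had -0.44. The 1 positive value was that of Cdkn1b, at 0.47. The marker was the brain transcript Rbfox3, at -2.68, with a level of at most 2.18 CPM in any library. Of the 11 cell cycle genes outside the mitosis genes, those still called were 1 (Cdkn3) without replicate 1 or replicate 3 of HDAC1 with TGFB1 or without replicate 2 of the empty vector in vehicle. They were 2 (Cdkn3 and Cdca3) without replicate 1 or replicate 3 of HDAC1 in vehicle, 4 without replicate 2 of HDAC1 with TGFB1 or replicate 1 of the empty vector with TGFB1, 6 without replicate 1 of the empty vector in vehicle, and 8 to 11 without any other library. Rbfox3 was lost in 8 of these 12 fits. All 12 genes were called under the 7 other alternatives.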

How the results depend on the processing

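The medians and counts of members called higher for HDAC1 in vehicle (43), TGFB1 with the empty vector (42 to 43) and both against neither (43) held under other scalings, filters and tests, except that scaling by library totals moved the median for both to 0.75. Under every alternative all 43 estimates were above 0 in these comparisons and below 0 in the interaction. For HDAC1 with TGFB1, 6 members were called higher with library totals, 7 with upper quartile scaling, 7 with the groups compared alone and 20 with DESeq2. For TGFB1 with HDAC1, library totals moved the median over all genes tested to -0.11, and the members' median was 0.18 with 21 called higher; upper quartile scaling gave a median of 0.20. The interaction calls of members ran from 8 with DESeq2 size factors to 18 with no filter on low counts, and were 16 with the DESeq2 test. Over all genes tested, the calls in either direction were 71, 479 and 242 in these fits, against 70 in the main fit. For HDAC1 alone against TGFB1 alone, library totals turned the median to 0.00065 with 4 called higher and 6 lower, and upper quartile scaling left 7 lower. Leaving out each library in turn gave 41 to 43 higher for HDAC1 in vehicle (median 0.50 to 0.59), 0 to 15 for HDAC1 with TGFB1 (0.14 to 0.20), 42 to 43 for TGFB1 with the empty vector (0.57 to 0.65), 21 to 35 for TGFB1 with HDAC1 (0.21 to 0.32), 43 for both against neither (0.76 to 0.87), 0 to 13 interaction calls (-0.40 to -0.29), and 1 to 3 higher and 6 to 13 lower for HDAC1 alone against TGFB1 alone (-0.096 to -0.011). Deviations of libraries with the same replicate number correlated at -0.17 to 0.17 (median -0.029), beside -0.14 to 0.17 for different numbers, so the numbers are not taken to pair the libraries. With a replicate block, HDAC1 with TGFB1 called 6 members, and the counts were 43 for HDAC1 in vehicle, 34 for TGFB1 with HDAC1 and 9 for the interaction. The causes of these shifts were not tested.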

Other observations

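Cdkn3, a phosphatase that acts on Cdk2, had the largest interaction among the lists of cell cycle genes, and the call held in all 19 alternatives run. Cdkn3 was at 39.8, 47.4 and 43.4 CPM with HDAC1 and TGFB1, 50.2, 46.9 and 47.3 CPM with HDAC1 in vehicle, 46.7, 45.1 and 50.9 CPM with the empty vector and TGFB1 and 29.7, 26.8 and 32.8 CPM with the empty vector in vehicle. The 3 treated groups overlapped, and all lay above the untreated one. Its log2 fold change was 0.69 ± 0.083 (SE) with HDAC1 in vehicle (edgeR adjusted p = 2.12e-05), 0.67 ± 0.084 with TGFB1 and the empty vector (edgeR adjusted p = 9.70e-07) and 0.55 ± 0.084 with both (edgeR adjusted p = 1.07e-05). Spc24, the partner of Spc25 in the Ndc80 complex, was at 47.0, 50.7 and 42.7 CPM with HDAC1 and TGFB1, 52.5, 57.1 and 52.5 CPM with HDAC1 in vehicle, 49.8, 43.7 and 57.0 CPM with the empty vector and TGFB1 and 36.6, 35.4 and 39.5 CPM with the empty vector in vehicle. Its change with both was 0.33 ± 0.090 (edgeR adjusted p = 0.00339), beside 0.54 with HDAC1 in vehicle and 0.43 with TGFB1.

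Within the HDAC1 in vehicle group, replicate 2 was the lowest of the 3 libraries for 38 of 43 mitosis genes. It also had the lowest summed level of Hdac1 and Hdac1l, 1226 CPM beside 1725 and 1827 CPM. Within the HDAC1 with TGFB1 group, replicate 2 was the lowest for 24 members, and the same sum was 1218 CPM beside 1712 and 1730 CPM. In both HDAC1 groups replicate 1 was the highest for 32 members, while replicate 3 had the highest sum. Within the empty vector vehicle group, replicate 3 was the highest for 36 members, and the sum was 222 CPM beside 212 and 220.0 CPM. Within the empty vector TGFB1 group, replicate 3 was the lowest for 23 members with the highest sum, 302 CPM. Replicate 2 was the highest for 25 members with the lowest sum, 259 CPM. The 43 genes of a library are not separate observations. With 3 libraries in a group, no relation between these values was tested.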
